A study of Homo sapiens with 12 samples.

Results

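MHC class I molecules and the genes that load them with peptide were followed in BJ-5ta, human fibroblasts that telomerase has made immortal. The 9 genes were taken by name from the deposited gene counts, out of 60671 genes in the table: HLA-B, HLA-C, HLA-E, HLA-F, B2M, TAP1, TAP2, TAPBP and NLRC5. All 9 were found and all 9 passed the filter on low counts, more than 1 CPM (a gene's counts scaled to 1e6 gene counts per library) in 3 or more libraries, which 13236 genes passed. Wild-type cells were compared with ΔLEO1 cells, in which CRISPR/Cas9 was aimed at the start of LEO1, a subunit of the PAF1 elongation complex of RNA polymerase II. Both were kept either in 10% serum or for 10 days in 0.1% serum, which arrests them in quiescence. This gives the groups WT_10, WT_01, Leo1_10 and Leo1_01, each with 3 libraries of poly(A) RNA to which ERCC transcripts, synthetic RNAs of known amount, had been added. All groups carry the telomerase transgene of the line. All ΔLEO1 libraries come from 1 clone, so a difference of genotype cannot be told apart from a difference between clones, and nothing states whether the libraries of a group came from separate cultures, so that p-values measure only the spread between these libraries. LEO1 itself had 851 to 935 counts in WT_10, 682 to 1001 in WT_01, 36 to 55 in Leo1_10 and 23 to 49 in Leo1_01, as the labels state.

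MHC class I molecules show peptides from inside a cell to CD8 T cells and NK cells. A heavy chain, here HLA-B, HLA-C or the less variable HLA-E and HLA-F, pairs with β2-microglobulin (B2M), and the pair is filled with peptides that the TAP1 and TAP2 transporter pumps into the endoplasmic reticulum. Tapasin (TAPBP) holds the empty molecule at the transporter, and NLRC5 is the transactivator that drives class I promoters. Fibroblasts express class I without stimulation and raise it on interferon.

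Class I promoters are known for a small set of motifs, and the windows before the starts of these genes show which members share them. The sequences are those of RefSeq on GRCh38.p14, 250 bases before each start, written 5′ to 3′ on the strand of the gene, and 7 of the 9 genes matched an entry. Searched on both strands, GAAANNGAA, the core of the interferon-stimulated response element, was in 5 of these 7 genes and in 6.88% of all 35116 such windows. TGACG (X2 box) was in 4 of the 7 genes and in 21.2% of windows, CCAAT (Y box) in 5 and in 32% and GGGGATTCC (enhancer A, the NF-kB site) in 1 and in 0.253%. The motifs were picked because they are known from class I promoters, and a match is a description of letters, not of binding. The stretches below hold the interferon motif, which the 2 TAP genes, tapasin, β2-microglobulin and HLA-F share, with its letters in capitals; in HLA-F and TAP1 it reads on the opposite strand, and in B2M, TAP1 and TAPBP 2 copies overlap. They lie at chr15:44711366-44711395 (+), chr6:29723269-29723298 (+), chr6:32853815-32853844 (-), chr6:32838778-32838807 (-) and chr6:33314079-33314105 (-). The windows of TAP1 and TAPBP begin inside a GENCODE exon of the gene. In HLA-F such an exon begins with the first letter of the motif.
B2M: actctaaGAAAAGGAAACTGAAaacgggaa
HLA-F: tccccagagtTTCTCTTTCtctcccaaccc
TAP1: ggccgctTTCGATTTCGCTTTCccctaaat
TAP2: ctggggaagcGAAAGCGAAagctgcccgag
TAPBP: tttggagGAAAGTGAAAGTGAAaggag
Longer windows are shown for TAP2, the member that differed between the genotypes, and for HLA-B, a heavy chain that was not called. Both are cut where an exon of GENCODE begins, leaving chr6:32838781-32838989 (-) and chr6:31357189-31357429 (-). In TAP2 the capitals mark the interferon motif, and in HLA-B, from the left, enhancer A, the X2 box and 3 Y boxes, of which the first 2 read on the opposite strand. HLA-B had no match to the interferon motif as written here.
TAP2: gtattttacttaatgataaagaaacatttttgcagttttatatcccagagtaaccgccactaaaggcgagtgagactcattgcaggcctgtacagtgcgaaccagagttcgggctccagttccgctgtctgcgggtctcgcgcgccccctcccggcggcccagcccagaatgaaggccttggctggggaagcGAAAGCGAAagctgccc
HLA-B: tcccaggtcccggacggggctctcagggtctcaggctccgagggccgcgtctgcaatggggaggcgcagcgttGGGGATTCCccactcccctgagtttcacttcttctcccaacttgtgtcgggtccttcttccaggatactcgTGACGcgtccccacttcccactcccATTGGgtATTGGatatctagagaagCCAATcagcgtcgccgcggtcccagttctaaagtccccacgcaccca

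Gene counts per library ran from 26240632 to 45315560, and the ERCC transcripts made up 0.625% to 3.24% of all counts. The highest-numbered library of each group (3, 6, 9 and 12) stood apart. A chi-square of counts per gene was 3.04 to 12.1 between the other libraries of a group and 66.2 to 144 in pairs with the highest-numbered one, so results are also given without these 4 libraries. Fibroblast markers were all expressed, 9 of 9 in the test, with 68514 to 99549 CPM in sum. Of 8 leukocyte markers 3 passed the filter, with 2.01 to 2.97 CPM in sum in wild type and 3.15 to 9.01 in ΔLEO1, and CD3E and ITGAM had at most 1 count in a library and MS4A1 0. The leukocyte marker that was higher in ΔLEO1 was PTPRC (CD45), at 0.204 to 0.627 CPM in wild type and 1.37 to 7.1 in ΔLEO1. It was under 1 CPM in every wild-type library, so it passed the filter through ΔLEO1 alone. On 1 of the 2 scales described below (TMM), 1 other of the 3 was called lower in ΔLEO1 in 0.1% serum. The part of PTPRC in the results was not tested. No endothelial marker of 4 passed, and of 5 epithelial markers KRT8 did, at 53.5 to 79.7 CPM in wild type and 23.1 to 39.7 in ΔLEO1.

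Values are given on 2 scales. ERCC-scaled counts divide a count by the effective ERCC total of its library, times 1e6, and follow the amount of a transcript relative to the added RNA, whereas CPM follows its share of all gene counts. In bulk RNA fewer cells and less RNA per cell cannot be told apart, and the sources do not say whether the ERCC mix was added per cell. For the libraries the paper gives a range of total RNA, not the amount in each. A difference in the amount put in therefore cannot be told apart from these either. On the ERCC scale the median tested gene was lower in 0.1% than in 10% serum by a log2 value of -0.97 in wild type and -1.05 in ΔLEO1, and higher in ΔLEO1 than in wild type by 0.35 in 10% and 0.27 in 0.1% serum. Fold changes from TMM on the genes remove these shifts and compare a gene with the other genes. All p-values are from edgeR's two-sided likelihood ratio test and adjusted over the 13236 genes, and genes under 0.05 are called.

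Of the 9 genes 7 lie in the MHC region of chromosome 6, HLA-F at chr6:29722775-29738528 (+), HLA-E at chr6:30489467-30494205 (+), HLA-C at chr6:31268749-31272130 (-), HLA-B at chr6:31269491-31357188 (-), TAP2 at chr6:32821833-32838780 (-), TAP1 at chr6:32845209-32853978 (-) and TAPBP at chr6:33299694-33314387 (-) (GRCh38, GENCODE). The annotated HLA-B gene includes a transcript that reaches across HLA-C. B2M lies at chr15:44711487-44718877 (+) and NLRC5 at chr16:56989485-57083531 (+).

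Per kilobase of exon HLA-B, HLA-C, HLA-E and β2-microglobulin were above the loading genes and NLRC5 in every group, and HLA-F was below TAPBP and TAP1. The group means of CPM per kilobase were 436 to 619.7 for HLA-B, 333 to 560.0 for HLA-C, 266 to 384 for B2M and 190.4 to 278 for HLA-E. TAPBP had 32.1 to 47.3, TAP1 8.78 to 16.8, HLA-F 4.63 to 7.82, TAP2 2.51 to 6.09 and NLRC5 0.783 to 1.51. This order held in the group means of WT_10, WT_01 and Leo1_10, where TAP2 had 6.09 and HLA-F 6.85 in Leo1_10. In Leo1_01 TAP2, at 6.06, was above HLA-F, at 4.63. Neighbours in this order overlapped between libraries for HLA-C and B2M in every group but WT_10, for HLA-B and HLA-C in both ΔLEO1 groups, for B2M and HLA-E in Leo1_01, and for HLA-F and TAP2 in both ΔLEO1 groups. The exons counted here include 17.8% for HLA-B and 16.1% for HLA-F that a pseudogene on the opposite strand overlaps, and 16.2% and 20.4% of their stretches of 58 bases, the length of a read, also occur in transcripts of other genes, those pseudogenes and other class I genes and pseudogenes among them. For TAP1 9.49% of exon bases lie under PSMB8-AS1, on the opposite strand, which had 35 to 134 counts. B2M and NLRC5 shared no such stretch. Whether the counting used strand is not given in the sources used here, so levels of HLA-B and HLA-F are uncertain. The level of TAP2 is uncertain too. Of its exon bases 32.3% are also exons of AL669918.1, on the same strand, which had 0 counts.

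**Figure D1:**
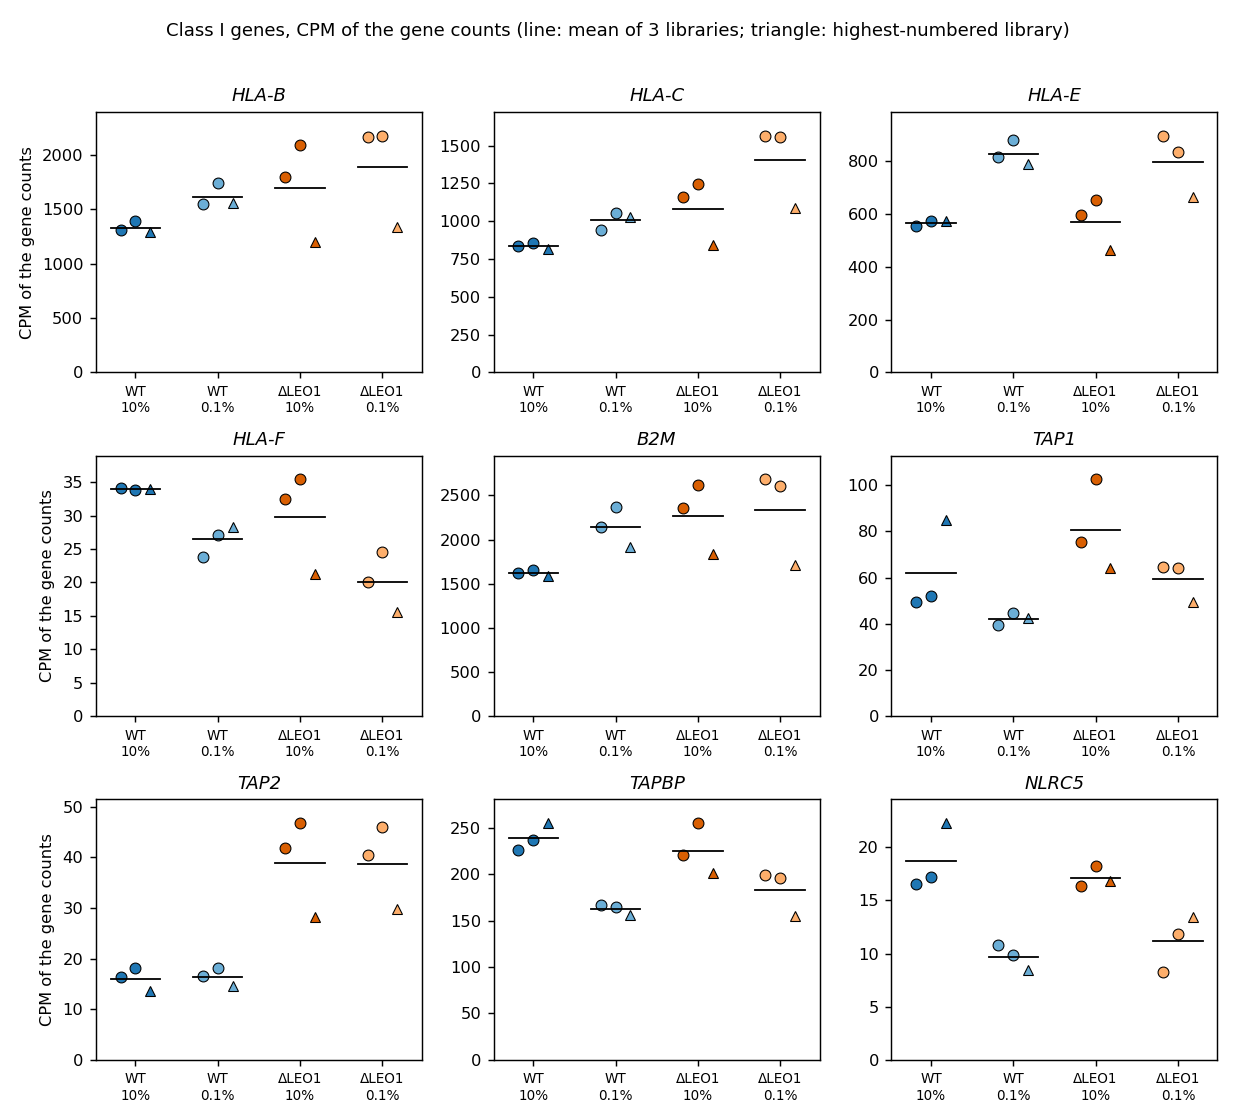
CPM of each class I gene in the 12 libraries, with the mean of 3 libraries as a line and the highest-numbered library of each group as a triangle; every axis starts at 0. TAP2 was 13.6 to 18.1 CPM in the 6 wild-type libraries and 28.1 to 46.8 in the 6 ΔLEO1 libraries, with no overlap.

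In wild-type cells low serum lowered HLA-F, TAP1, TAPBP and NLRC5, and in CPM these 4 were below 10% serum in every library. In CPM HLA-B, HLA-C, HLA-E and B2M were above 10% serum in every library. All genes without overlap in CPM made up 18.6% in the lower and 31.5% in the higher direction. On the ERCC scale 4 of the 9 members were called lower and 0 higher, where 36.1% of all tested genes were called lower and 0.944% higher, so the share of members called is near that of all genes. The median log2 fold change of the members was -1.03, beside -0.97 for all genes.

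NLRC5, the transactivator, changed most. Its ERCC-scaled counts were 2088, 1810.0 and 1548 in WT_10 and 505, 593 and 316 in WT_01, a log2 fold change of -1.95 (SE 0.47, n = 3 and 3, edgeR adjusted p = 0.00124). The groups did not overlap on this scale, as was so for 53.4% of all genes in this direction, nor in CPM, with 16.6, 17.2 and 22.3 in 10% and 10.8, 9.83 and 8.48 in 0.1% serum. Relative to the other genes NLRC5 fell by 1.03 on the log2 scale (adjusted p = 5.3e-07).

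Tapasin fell next. TAPBP had 226, 236 and 255 CPM in WT_10 and 167, 165 and 156 in WT_01, so that every library in low serum lay below every library in 10% serum. The ERCC-scaled counts were 28515, 24827 and 17719 against 7803, 9924 and 5806, a log2 fold change of -1.59 (SE 0.44, edgeR adjusted p = 0.00494) and of -0.65 with TMM on the genes (adjusted p = 7.44e-05).

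Of the transporter subunits TAP1 was called and TAP2 was not, and no test compared their responses to serum. The ratio of their counts within a library, TAP2/TAP1, overlapped between WT_10 (0.161 to 0.348) and WT_01 (0.344 to 0.42). TAP1 had 49.5, 52.2 and 84.9 CPM in WT_10 and 39.4, 44.8 and 42.4 in WT_01, with library 3 of WT_10 well above the other two. Its log2 fold change was -1.52 (SE 0.45, edgeR adjusted p = 0.0081) on the ERCC scale and -0.65 (adjusted p = 0.0203) with TMM. TAP2 was at 16.3, 18.1 and 13.6 CPM in WT_10 and 16.5, 18.1 and 14.6 in WT_01, which overlap, and was not called (-1.03 on the ERCC scale, adjusted p = 0.0626; -0.05 with TMM, adjusted p = 0.879).

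Among the heavy chains HLA-F and HLA-E moved apart. HLA-F had 34.1, 33.8 and 34 CPM in WT_10 and 23.8, 27.2 and 28.4 in WT_01, and on the ERCC scale it fell by 1.42 in log2 (SE 0.46, edgeR adjusted p = 0.015). With TMM its log2 value of -0.45 was not called (adjusted p = 0.0826). HLA-E, the ligand of the NKG2A receptor, had 555, 572 and 572 CPM in WT_10 and 815, 879 and 788 in WT_01, so every library in low serum was above every library in 10% serum. On the ERCC scale HLA-E was not called (-0.49, adjusted p = 0.309), whereas relative to the other genes it rose by 0.46 (SE 0.16, adjusted p = 0.0162).

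HLA-B, HLA-C and B2M went the same way as HLA-E in CPM without passing either test. HLA-B had 1286 to 1394 CPM in WT_10 and 1549 to 1741 in WT_01. HLA-C had 813 to 858 and 940.3 to 1055, and B2M 1586 to 1653 and 1915 to 2372. None of the 3 overlapped between the groups. Their log2 fold changes were -0.77, -0.79 and -0.63 on the ERCC scale (adjusted p from 0.117 to 0.197) and 0.20, 0.18 and 0.32 with TMM (adjusted p from 0.206 to 0.534), so their direction depends on the scale.

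With TMM on the genes 3 members were called lower and 1 higher, against 16.6% and 16% of all genes. Without the 4 highest-numbered libraries 7 of 9 were called lower on the ERCC scale, HLA-B, HLA-C and TAP2 being added at log2 values of -0.81, -0.86 and -1.09. In that fit 5 of the 9 fibroblast markers were called lower and 1 higher, against 4 and 0 with all 12 libraries. The share of all genes called in it is not given here. Leaving out library 7 of WT_01 left 2 calls and leaving out library 9 left 1, that of NLRC5. HLA-F was called in 2 of the 6 fits that left out 1 library.

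**Figure D2:**
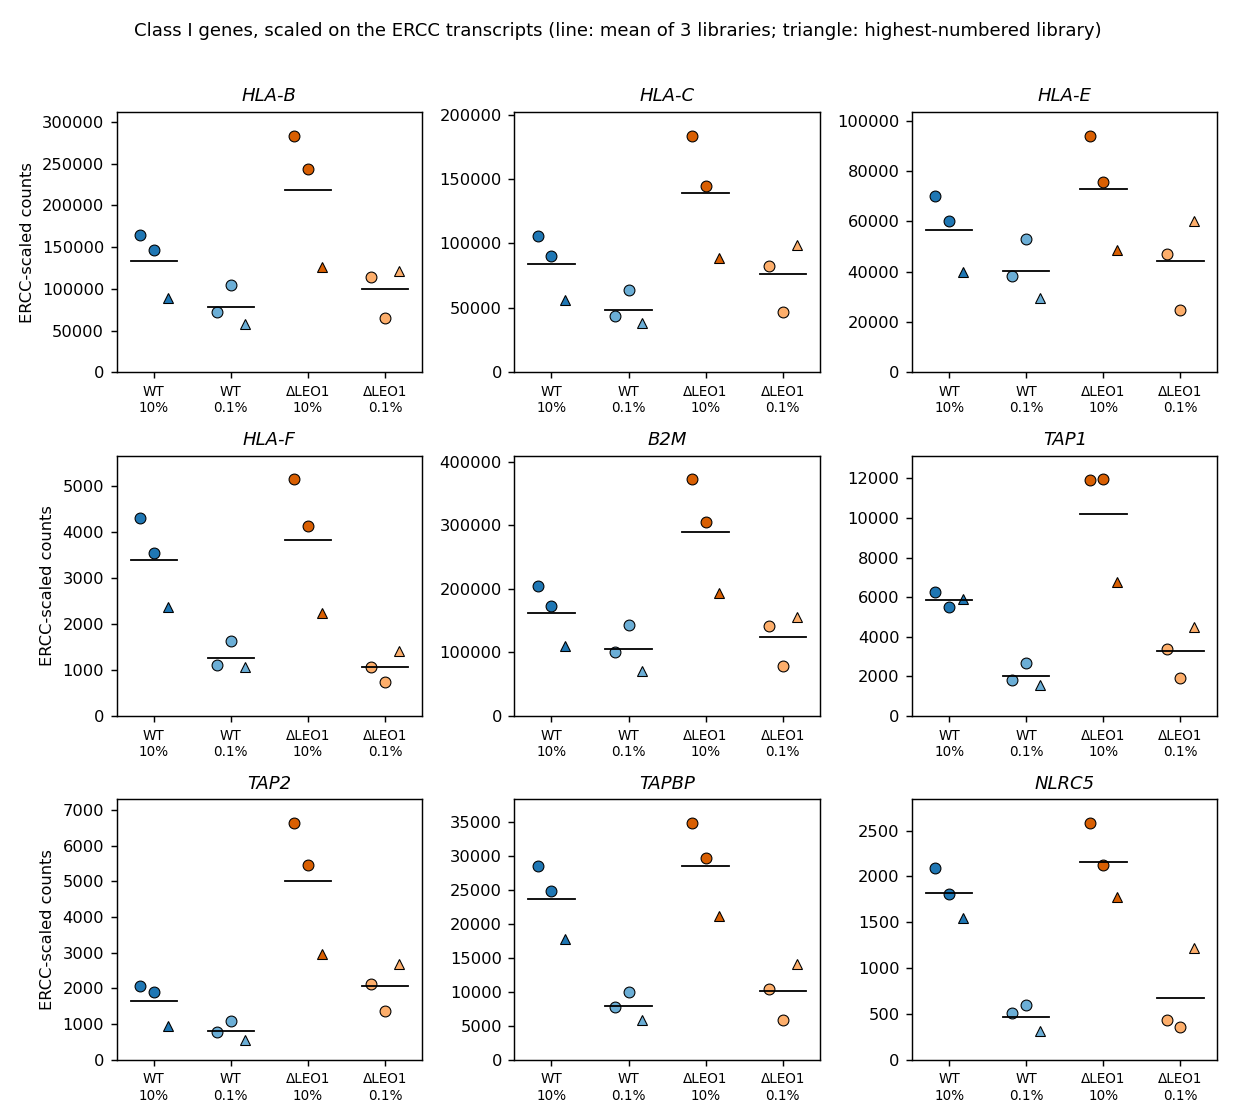
ERCC-scaled counts of each class I gene in the 12 libraries, with the mean of 3 libraries as a line and the highest-numbered library of each group as a triangle; every axis starts at 0. NLRC5 and TAPBP in low serum lay below 10% serum in both genotypes, and library 12 of Leo1_01 was the highest of its group in 9 of 9 genes. That library had 90.7 gene counts per effective ERCC count over all genes, against 52.7 and 29.95 in libraries 10 and 11. In CPM it was the lowest of its group for every member but NLRC5.

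In ΔLEO1 cells 7 of 9 members were called lower in low serum and 0 higher, where 47.2% of all genes were called lower and 0.975% higher. HLA-C (-0.87, adjusted p = 0.0771) and HLA-E (-0.72, adjusted p = 0.134) were the members not called. The median log2 fold change of the 9 was -1.28, beside -1.05 for all genes.

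HLA-F changed most in ΔLEO1 cells. Its ERCC-scaled counts were 5150.3, 4129.9 and 2241 in Leo1_10 and 1060.1, 737 and 1419 in Leo1_01, a log2 fold change of -1.84 (SE 0.46, edgeR adjusted p = 0.00227), and with TMM it fell by 0.62 (adjusted p = 0.0144). In CPM the groups overlapped through the highest-numbered library 6, with 32.6, 35.4 and 21.2 in Leo1_10 and 20.1, 24.6 and 15.6 in Leo1_01.

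NLRC5, TAP1 and TAPBP fell by log2 values of 1.69, 1.64 and 1.49 on the ERCC scale (adjusted p from 0.00679 for NLRC5 and 0.00574 for TAP1 to 0.00983 for TAPBP). The ERCC-scaled counts of NLRC5 were 2581, 2122 and 1775 in Leo1_10 and 438, 354 and 1223 in Leo1_01, with library 12 far above the other two. NLRC5 had 16.3, 18.2 and 16.8 CPM in Leo1_10 and 8.31, 11.8 and 13.5 in Leo1_01. With TMM NLRC5 (-0.68, adjusted p = 0.00164) and TAPBP (-0.35, adjusted p = 0.0482) were called and TAP1 was not (-0.49, adjusted p = 0.0966). As in wild type, HLA-E was the member called higher relative to the other genes (0.44, SE 0.16, adjusted p = 0.0267), from 595, 651 and 463 CPM in Leo1_10 to 897, 834 and 665 in Leo1_01.

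HLA-B, B2M and TAP2 fell by 1.12, 1.22 and 1.28 in log2 on the ERCC scale (adjusted p = 0.0325, 0.0242 and 0.0246), close to the median gene. Their TMM values of 0.11, -0.01 and -0.06 were not called, and that of HLA-B turned its direction. TMM called 3 members lower and 1 higher in ΔLEO1, against 12.9% and 16.5% of all genes. Without the highest-numbered libraries all 9 were called lower on the ERCC scale, with log2 values from -2.57 for NLRC5 to -1.24 for HLA-E. In that fit 7 of the 9 fibroblast markers were called lower too, against 2 with all 12 libraries. The share of all genes called in it is not given here. With the 6 libraries compared alone 4 members were called in ΔLEO1, against 7 in wild type. Other lists moved the same way in these fits. Of the 9 fibroblast markers 2 were called lower in ΔLEO1, and 5 lower and 1 higher in wild type. Of 9 class I-like genes 3 were called lower in ΔLEO1 and 7 in wild type. The share of all genes called in these fits is not given here either. The genotype by serum interaction was called for 0 members. Leaving out a single library left 4 calls without library 5 or library 11 and 2 without library 4 or library 10.

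**Figure D3:**
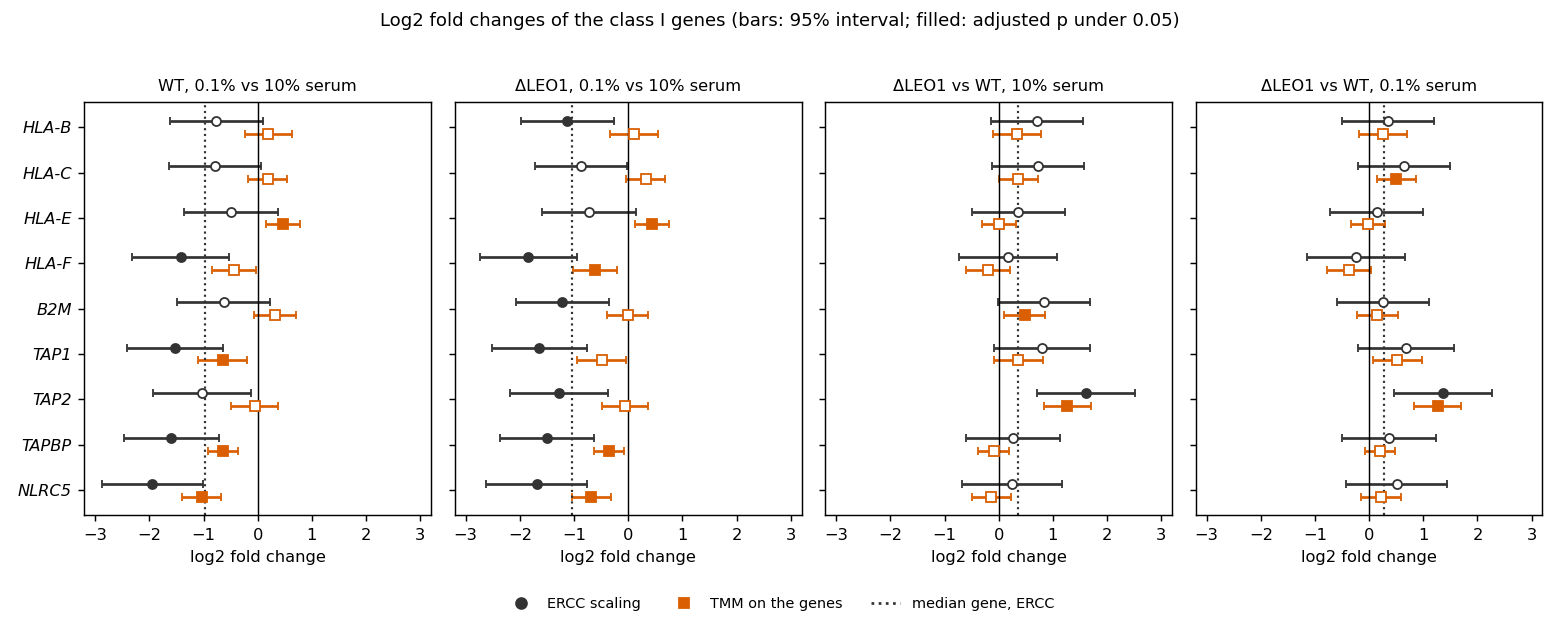
Log2 fold change of each class I gene in the 4 comparisons, with 95% intervals, on the ERCC scale (circles) and with TMM on the genes (squares); filled symbols have an adjusted p under 0.05 and the dotted line is the median of all tested genes on the ERCC scale. TAP2 was the member called on both scales in both comparisons of ΔLEO1 with wild type.

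Between the genotypes TAP2, a subunit of the peptide transporter, was the class I gene that was called, and it was higher in ΔLEO1 in both sera. In 10% serum it had 16.3, 18.1 and 13.6 CPM in the 3 wild-type libraries and 41.9, 46.8 and 28.1 in ΔLEO1. In 0.1% serum the values were 16.5, 18.1 and 14.6 in wild type and 40.5, 46 and 29.7 in ΔLEO1. The lowest ΔLEO1 library, the highest-numbered one of Leo1_10, was above the highest wild-type library. Of all genes 29.8% in 10% and 19.7% in 0.1% serum were higher in ΔLEO1 without overlap in CPM, and on the ERCC scale, where TAP2 did not overlap either, 23.7% and 4.64%.

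On the ERCC scale TAP2 had 2060.5, 1906 and 948 scaled counts in WT_10 and 6630.5, 5449 and 2964 in Leo1_10, 3.06 times the wild-type level by the fit (log2 1.61, SE 0.46, edgeR adjusted p = 0.0095). In 0.1% serum it had 775, 1089.7 and 544 in WT_01 and 2134, 1378 and 2693 in Leo1_01 (log2 1.37, SE 0.46, edgeR adjusted p = 0.0483). With TMM the values were 1.27 (adjusted p = 1.13e-07) and 1.26 (adjusted p = 1.86e-07). This is 1 of 9 members called in each serum, where 4.2% of all genes were called higher in 10% and 3.85% in 0.1% serum.

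The call in 0.1% serum was close to the threshold. It was lost with the quasi-likelihood test (adjusted p = 0.0757), which called 3.49% of all genes higher, and without the highest-numbered libraries, at 0.91 (adjusted p = 0.0569). Leaving out library 7, 8, 9 or 10 gave adjusted p-values of 0.251, 0.0553, 0.331 and 0.119. In 10% serum the call held with the quasi-likelihood test (0.0175, with 3.81% of all genes called higher) and without the highest-numbered libraries (1.61, adjusted p = 0.000178), and leaving out library 3, 4 or 5 alone gave 0.113, 0.107 and 0.0582.

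TAP2 (ENSG00000204267) is a minus-strand gene at chr6:32821833-32838780 (GRCh38, GENCODE), with 6390 exon bases, in the MHC region beside TAP1, PSMB8 and PSMB9. Of its exon bases 2064, or 32.3%, are also exons of AL669918.1, an annotated gene on the same strand that had 0 counts in all 12 libraries. How the counting treated reads on both genes was not given in the sources used here, and its part in the TAP2 values was not tested.

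The other 8 members were not called between the genotypes on the ERCC scale. Their log2 fold changes in 10% serum lay between 0.17 for HLA-F and 0.84 for B2M, all above 0, beside 0.35 for the median gene, and in 0.1% serum between -0.25 for HLA-F and 0.68 for TAP1, beside 0.27. In 10% serum TMM turned the direction of HLA-E, HLA-F, TAPBP and NLRC5. The 95% intervals ran -0.15 to 1.56 for HLA-B, -0.09 to 1.68 for TAP1 and -0.49 to 1.22 for HLA-E, which hold both no difference and a log2 difference of 1. B2M was called with TMM in 10% serum (0.48, SE 0.19, adjusted p = 0.0387), at 1618, 1653 and 1586 CPM in WT_10 and 2354, 2617 and 1834 in Leo1_10. HLA-C was called with TMM in 0.1% serum (0.50, SE 0.18, adjusted p = 0.0217), at 940.3, 1055 and 1025 CPM in WT_01 and 1566, 1560.2 and 1086 in Leo1_01. Both genes overlapped between the genotypes on the ERCC scale. With TMM 2 members were called higher in each serum, against 17.7% of all genes in 10% and 15.4% in 0.1% serum.

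HLA-B and TAP1 differed within the groups by the highest-numbered libraries. HLA-B had 1792, 2091 and 1198 CPM in libraries 4, 5 and 6 and 2161, 2177 and 1335 in libraries 10, 11 and 12, against 1286 to 1394 in WT_10 and 1549 to 1741 in WT_01. Libraries 6 and 12 were thus below the wild-type values of the same serum, and the other 4 ΔLEO1 libraries above the wild-type values of the same serum. TAP1 had 75.2, 103 and 64 CPM in Leo1_10, against 49.5, 52.2 and 84.9 in WT_10, where library 3 was the highest. Without the highest-numbered libraries TAP1 was called higher in 10% serum (1.02, adjusted p = 0.0359). In 0.1% serum the same omission turned the ERCC-scaled differences of HLA-E, B2M, TAPBP and NLRC5 below 0, to values between -0.47 and -0.12, none of which was called.

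No member's response to serum was called different between the genotypes. The interaction of genotype and serum ran from -0.58 for B2M to 0.26 for NLRC5 in log2, with 0 of 9 called by edgeR's likelihood ratio test, 0 by its quasi-likelihood test and 0 by DESeq2, where 0.219% of all genes were called by the first and 0.174% by the second. At an unadjusted p under 0.05 there were 0 members by each of the 3. The standard errors of 0.62 to 0.67 leave wide intervals, -1.79 to 0.62 for B2M.

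**Figure D4:**
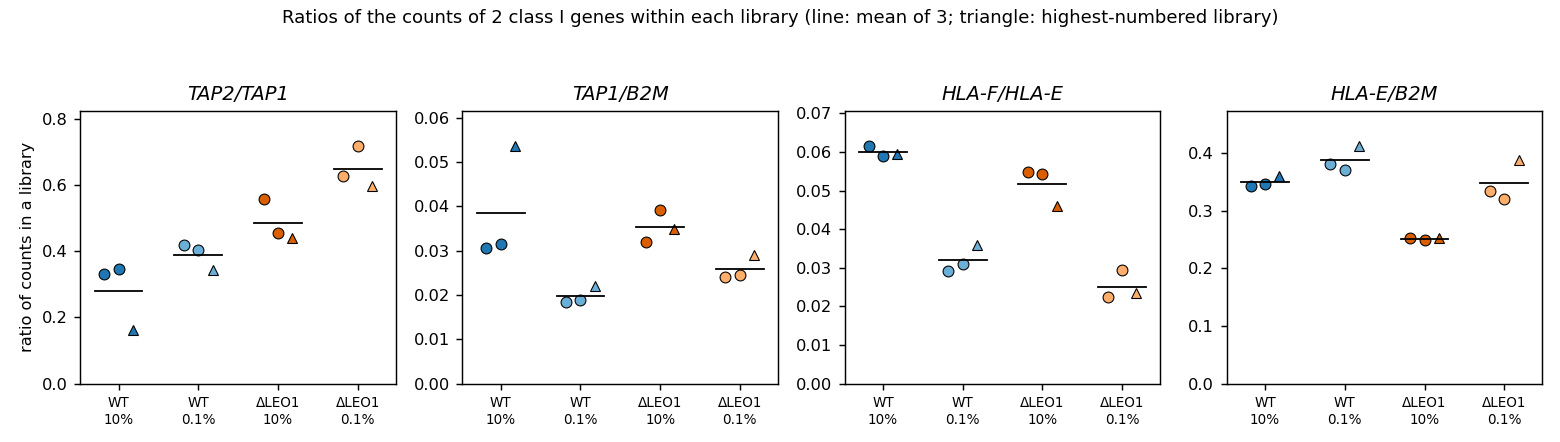
Ratio of the counts of 2 class I genes within each library, with the mean of 3 libraries as a line and the highest-numbered library of each group as a triangle; every axis starts at 0. TAP2/TAP1 was higher in the 3 ΔLEO1 libraries than in the 3 wild-type libraries of the same serum, and HLA-F/HLA-E was lower in 0.1% than in 10% serum in both genotypes.

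Ratios between members within a library do not depend on either scale. They were chosen after the values were seen and are given without a test. TAP2/TAP1 was 0.33, 0.348 and 0.161 in WT_10 and 0.557, 0.456 and 0.439 in Leo1_10, and 0.42, 0.403 and 0.344 in WT_01 and 0.627, 0.717 and 0.599 in Leo1_01. The subunits of the transporter were thus closer in ΔLEO1 in every library than in wild type of the same serum, and library 3 of WT_10 stood below the other libraries.

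HLA-F/HLA-E was 0.0591 to 0.0615 in WT_10 and 0.0292 to 0.036 in WT_01, 0.0459 to 0.0547 in Leo1_10 and 0.0224 to 0.0295 in Leo1_01. Of the 4 groups WT_01 and Leo1_01 overlapped on this ratio. TAP1/B2M was 0.0306 to 0.0535 in WT_10, 0.0184 to 0.0221 in WT_01, 0.0319 to 0.0392 in Leo1_10 and 0.0241 to 0.029 in Leo1_01, lower in low serum in both genotypes without overlap.

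HLA-E/B2M separated Leo1_10, at 0.253, 0.249 and 0.252, from WT_10 at 0.343, 0.346 and 0.361, WT_01 at 0.38, 0.371 and 0.412 and Leo1_01 at 0.334, 0.319 and 0.388. Here the highest-numbered library 6 lay between libraries 4 and 5. HLA-C/B2M was highest in Leo1_01, at 0.584, 0.598 and 0.634, against 0.458 to 0.493 in Leo1_10, 0.513 to 0.519 in WT_10 and 0.439 to 0.535 in WT_01. HLA-B/HLA-C, 2 heavy chains that share stretches of sequence, was 1.23 to 1.4 in Leo1_01 and 1.43 to 1.68 in the other 9 libraries.

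The other genes of the pathway, from a list of the loading complex, the aminopeptidases and the chaperones, had median log2 fold changes of -0.999 in wild type and -1.17 in ΔLEO1 in low serum, beside -0.97 and -1.05 for all genes. Of these 10 genes 4 were called lower in wild type in low serum and 7 in ΔLEO1, where 36.1% and 47.2% of all genes were, and 0 were called between the genotypes. With TMM 2 were lower and 2 higher in wild type, against 16.6% and 16% of all genes. In ΔLEO1 1 was lower and 2 were higher, against 12.9% and 16.5%. With the libraries compared alone 7 were lower in wild type and 2 in ΔLEO1, and leaving out 1 library gave 0 to 7 and 0 to 8. UGGT1, which re-glucosylates misfolded glycoproteins, fell by 1.53 in wild type (adjusted p = 0.00742) and the lectin chaperone CALR by 1.48 in ΔLEO1 (adjusted p = 0.0096). With TMM 1 of the 10 was called between the genotypes in each serum, lower in ΔLEO1, TAPBPL, a relative of tapasin that edits peptides (-0.87, adjusted p = 0.00052 in 10%; -0.80, adjusted p = 0.00175 in 0.1% serum).

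The immunoproteasome, which cuts peptides for class I in interferon-treated cells, had 0 of 5 genes called in wild type in low serum and 4 lower in ΔLEO1, where 36.1% and 47.2% of all genes were called lower. The counts were 0 and 0 with TMM, 3 and 0 with the libraries compared alone, and 0 to 3 and 0 to 5 leaving out 1 library. The interaction was called for 0 of the 5. The 3 catalytic subunits that it replaces were all called lower in both genotypes. In wild type 0 of the 3 were called with the quasi-likelihood test, with TMM, without the filter or with the highest-numbered library as a covariate, and in ΔLEO1 1 was called with TMM and 0 with the libraries compared alone. None of these 8 genes was called between the genotypes on either scale. PSMB9, whose RefSeq start lies 488 bases from that of TAP1 on the opposite strand, had 20.4, 18.9 and 20.5 CPM in WT_10 and 26.7, 32.7 and 18.1 in Leo1_10 (log2 0.73, adjusted p = 0.445).

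Of 7 interferon receptor and Janus kinase genes 0 were called between the genotypes on the ERCC scale. With TMM 2 of these 7 were called lower in 10% serum and 0 were called in 0.1% serum. Over all tested genes TMM called 5224 in 10% serum, 44.9% of these higher, and 4366 in 0.1% serum, 46.6% of these higher. Whether this list differs from all genes was not tested.

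Interferon-stimulated genes outside the class I pathway were higher in ΔLEO1. Of 12 such genes 11 were called higher in ΔLEO1 in 10% serum and 9 in 0.1% serum, where 4.2% and 3.85% of all genes were. The list was chosen with earlier results of these data known, so these counts describe it and do not test it. The medians of the 12 were 2.32 and 1.55 in log2, beside 0.71 and 0.37 for the 9 class I members; the difference between the lists was not tested. OAS1, which senses double-stranded RNA, had 1.04, 1.99 and 0.689 CPM in WT_10 and 20.6, 35.5 and 5.76 in Leo1_10, and 3.71, 4.73 and 6.18 in WT_01 and 29.9, 31 and 17.4 in Leo1_01. Its log2 fold changes were 4.38 (adjusted p = 3.4e-13) and 2.57 (adjusted p = 1.66e-05). IFI6 was second in 10% serum (3.65, adjusted p = 1e-11) and ISG15, a ubiquitin-like modifier, was second in 0.1% serum (2.50, adjusted p = 8.18e-06).

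With TMM 11 of 12 were called higher in each serum, against 17.7% and 15.4% of all genes. Without the highest-numbered libraries the counts were 11 and 8, and leaving out 1 library gave 8 to 11 in 10% serum and 4 to 11 in 0.1% serum. The count in 0.1% serum was 4 without library 7, 5 without library 9, 5 with the libraries compared alone and 4 when libraries other than the highest-numbered were summed. In low serum 4 of the 12 were called lower in wild type and 9 in ΔLEO1, against 36.1% and 47.2% of all genes. With TMM these counts were 1 and 2, against 16.6% and 12.9% of all genes. Leaving out library 1 or 7 left 1 and library 9 left 2 in wild type, and library 4 or 10 left 4 and library 5 left 5 in ΔLEO1.

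**Figure D5:**
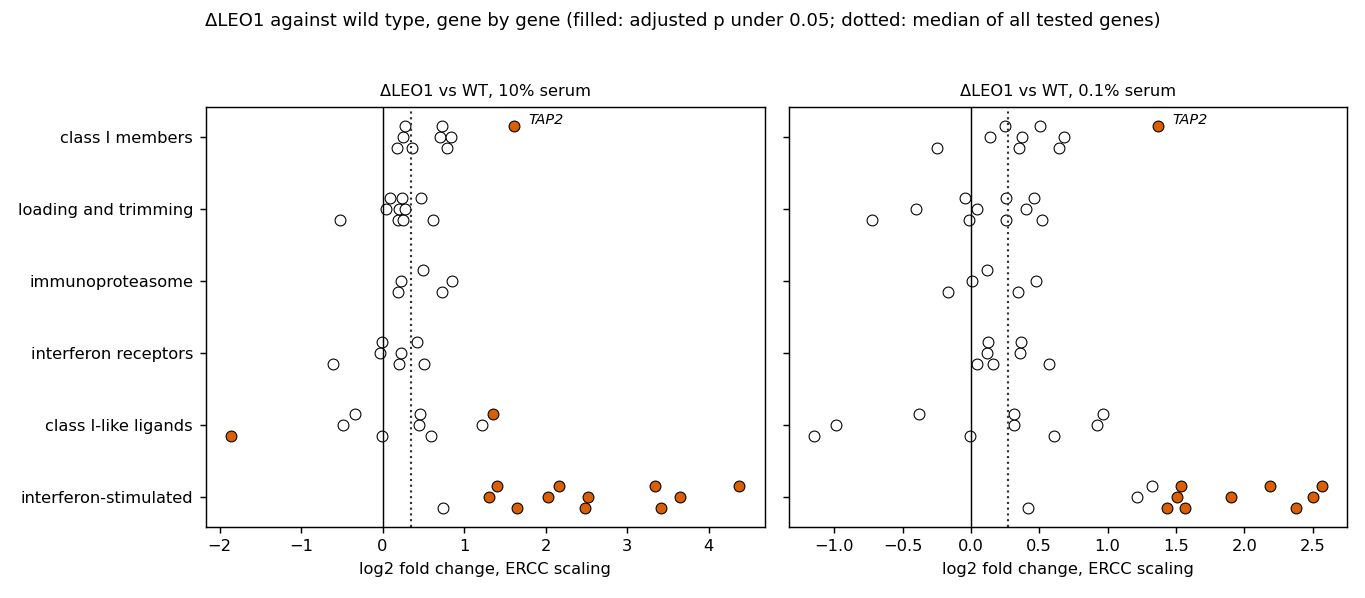
Log2 fold change on the ERCC scale of ΔLEO1 against wild type in 10% (left) and 0.1% serum (right) for each tested gene of the class I members and of 5 lists around them; filled points have an adjusted p under 0.05 and the dotted line is the median of all tested genes. TAP2 and the interferon-stimulated genes lay to the right, and the other class I members between -0.25 and 0.84.

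Of 10 class I-like genes 9 passed the filter, and 5 were called lower in low serum in each genotype, against 36.1% of all genes in wild type and 47.2% in ΔLEO1. With TMM 2 were lower and 2 higher in each. The shares of all genes with TMM were 16.6% lower and 16% higher in wild type, and 12.9% and 16.5% in ΔLEO1. In 10% serum MICA, a ligand of the NKG2D receptor, was higher in ΔLEO1 (1.36, adjusted p = 0.0449) and ULBP1, another ligand of this receptor, lower (-1.86, adjusted p = 0.00664). The call of MICA was lost with the quasi-likelihood test (adjusted p = 0.0697), without the filter and with the covariate, and that of ULBP1 with DESeq2 on ERCC size factors. In 0.1% serum 0 of the 9 were called, with 0.97 for MICA and -1.15 for ULBP1. With TMM 3 were lower and 2 higher in 10% serum, and 3 lower and 1 higher in 0.1% serum. Of all genes TMM called 5224 in 10% serum, 44.9% of these higher, and 4366 in 0.1% serum, 46.6% of these higher. Of 10 class II genes 1 passed the filter, HLA-DMA, which edits class II peptides. It was higher in ΔLEO1 in 10% serum (1.82, adjusted p = 0.00844), not called in 0.1% serum (0.63, adjusted p = 0.732), and fell in low serum in ΔLEO1 (-2.05, adjusted p = 0.00237). Of all genes 4.2% were called higher in ΔLEO1 in 10% serum, and 47.2% lower in low serum in ΔLEO1. Leaving out 1 library gave 0 to 1 calls of HLA-DMA in 10% serum. Both of its calls were lost when libraries other than the highest-numbered were summed.

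The genes most like the class I members over the 12 libraries were ARPC5L, TXNDC17, PRELID1, PSMA3 and PA2G4, by the root mean square difference of log2 CPM from the mean profile of the 9 members, each centred on its own mean. These differences were 0.0629, 0.0953, 0.0983, 0.0984 and 0.104. The members themselves lay farther from their mean profile, from 0.19 for HLA-B to 0.51 for TAP2.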

How the data were processed

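The authors prepared poly(A) libraries with ERCC transcripts added to each sample, sequenced them as paired reads and deposited raw read counts per gene for 12 libraries; the submitters' notes name bcl2fastq 2.20.0.422, STAR 2.7.10a, featureCounts 1.5.1 and GRCh38. The annotation release and the strand setting are not given in the sources used here. Reads without molecular identifiers are not independent molecules.

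A gene was tested if at least 3 libraries had over 1 CPM of it (13236 of 60671), in 1 fit of all 12 libraries with edgeR 4.0.16 (R 4.3.3, limma 3.58.1) by a two-sided likelihood ratio test. Library sizes were the totals of the 92 ERCC transcripts times their TMM factor. P-values were adjusted by Benjamini-Hochberg over all tested genes, and intervals are 95%. The comparisons were 0.1% against 10% serum in each genotype, ΔLEO1 against wild type in each serum, and their interaction. The script was tested on simulated data. Alternatives were the quasi-likelihood test, DESeq2 1.42.0, scaling on the genes, no filter, the libraries compared alone, the highest-numbered library as a covariate or left out, the other 2 summed, and each library left out.

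The members and gene lists were chosen with earlier results of these data known. All 9 members were named, of each list up to 2 called genes with the largest change in each direction, and the 5 genes nearest in profile; PSMB9 was added after its values were seen. The counts of the list of class I regulators are not reported here. Promoter windows are from RefSeq, gene positions from GENCODE.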

Additional observations from a re-analysis of the deposited data

How the results depend on the processing

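No paired analysis was possible because the labels number the libraries 1 to 12 across the groups and no groups share a number. A term for the highest-numbered library of each group, which stands apart in the counts, gave 4 called members in wild type and 5 in ΔLEO1 in low serum, 1 in each comparison of the genotypes and 0 for the interaction. The counts of called members moved as follows, and the cause was not tested beyond what each alternative leaves out. The share of all genes called is not given here for fits on fewer or on summed libraries. In wild type in low serum 4 members were called, and 7 with the 6 libraries compared alone, 7 without the highest-numbered libraries, 0 when libraries other than the highest-numbered were summed within a group, and 1 to 5 leaving out 1 library. In ΔLEO1 in low serum 7 were called, and 4 with TMM on the genes, 3 with DESeq2 size factors on the genes, 4 with the libraries compared alone, 0 with summed libraries and 2 to 9 leaving out 1 library. For ΔLEO1 against wild type in 10% serum the count was 1, and 2 with TMM, with size factors on the genes and without the highest-numbered libraries, 0 with summed libraries and 0 to 1 leaving out 1 library. In 0.1% serum it was 1, and 2 with TMM and with size factors, 0 with the quasi-likelihood test, without the filter, with the libraries compared alone, without the highest-numbered libraries and with summed libraries, and 0 to 1 leaving out 1 library. The interaction gave 0 under each of these.

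These log2 values turned their direction. TMM and DESeq2 size factors on the genes gave, in wild type in low serum, 0.20 and 0.20 for HLA-B, 0.18 and 0.19 for HLA-C, 0.46 and 0.46 for HLA-E and 0.32 and 0.32 for B2M, and in ΔLEO1 0.11 and 0.11 for HLA-B, 0.33 and 0.33 for HLA-C and 0.44 and 0.43 for HLA-E. Between the genotypes in 10% serum they gave -0.20 and -0.19 for HLA-F, -0.095 and -0.085 for TAPBP and -0.14 and -0.13 for NLRC5, and TMM -0.0021 for HLA-E; in 0.1% serum -0.028 and -0.020 for HLA-E. Without the highest-numbered libraries the values in 0.1% serum were -0.34 for HLA-E, -0.15 for B2M, -0.12 for TAPBP and -0.47 for NLRC5. For the interaction they were 0.14 and 0.14 for HLA-C and 0.16 and 0.16 for TAP1 with the scalings on genes, -0.39 for TAPBP and -0.74 for NLRC5 without the highest-numbered libraries, and 0.12 for HLA-C, 0.0093 for HLA-E and 0.21 for TAP1 with summed libraries. Leaving out 1 library gave -0.083 to 0.46 for HLA-F in 10% serum, and -0.15 to 0.42 for HLA-E and -0.25 to 0.82 for NLRC5 in 0.1% serum. The interaction then ran -0.32 to 0.17 for HLA-C, -0.52 to 0.054 for HLA-E, -0.41 to 0.16 for TAP1, -0.51 to 0.034 for TAP2, -0.21 to 0.38 for TAPBP and -0.50 to 0.57 for NLRC5. With 3 libraries a group, an exact permutation test could not go below p = 0.1, so no such test was used.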
